A study of Mus musculus with 16 samples.

Results

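Hkdc1 and the classical hexokinase genes Hk1, Hk2 and Hk3 were followed across 16 RNA sequencing libraries from mouse dorsal hippocampus. The genes were taken by name from a table of 55385 Ensembl gene identifiers, and all 4 were found and passed the filter on low counts that left 16899 genes to test. Hkdc1 was chosen because earlier results of these data had shown it lower with Dnmt3a2 at both days. Those differences are therefore given as a description with no p-value, and their intervals and calls do not allow for this choice. Hk1, Hk2 and Hk3 were added as the gene family of Hkdc1.

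Every animal had been injected with a recombinant adeno-associated virus into the dorsal hippocampus, for GFP in controls or for exogenous Dnmt3a2, a short form of the de novo DNA methyltransferase Dnmt3a. All groups were then trained in contextual fear conditioning 3 weeks later, so no group was left untrained. The 4 groups of 4 libraries were Control_1d and Dnmt3a2_1d, taken 1 day after training, and Control_5d and Dnmt3a2_5d, taken 5 days after it. Neither the vectors' promoter, nor the cells they reached, nor the mice's strain, age and sex is stated in the labels. Whether any animals were pooled, or gave more than 1 library, is likewise unstated, and all p-values below therefore speak of sample-to-sample spread, which may be technical.

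Hexokinases add a phosphate to glucose as it enters a cell, which traps the sugar and commits it to glycolysis, the pentose phosphate pathway, glycogen or hexosamine synthesis. Hk1 encodes the main brain hexokinase, which binds to mitochondria and is inhibited by its own product. Hk2 encodes an inducible isozyme of insulin-responsive tissues, and Hk3 an isozyme found mainly in myeloid blood cells. Hkdc1 encodes a protein closely related to Hk1, with weak hexokinase activity reported, and the pair lie side by side in the genome.

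Libraries held 28.6 to 30.0 M estimated counts. Levels are in CPM, that is, estimated counts per M of library size after TMM adjustment for library composition. The targeted gene followed the labels. Dnmt3a stood at 34.8 CPM in Control_1d and 964 CPM in Dnmt3a2_1d, and at 35.1 CPM in Control_5d and 1161 CPM in Dnmt3a2_5d. Neuron, CA1, CA3 and CA2, and dentate granule cell markers were present in every library. Choroid plexus markers summed to 853 CPM in Dnmt3a2_1d replicate 1 and 1360 CPM in Dnmt3a2_5d replicate 1, against 39.5 to 202 CPM in the other libraries.

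Because Hkdc1 and Hk1 are related in sequence and Hk1 was far more abundant, their transcripts were compared first. Over the aligned coding sequence the genes were identical at 71.5% of bases. The stretch shown here covers coding positions 1927 to 2016 of Hkdc1 and 1936 to 2025 of Hk1, from the GENCODE M21 transcripts. It was centred on the longest run of Hkdc1 that also occurs anywhere in the Hk1 coding sequence, and was not chosen by how conserved the alignment is. Capitals mark the 70 identical bases of 90.
Hkdc1: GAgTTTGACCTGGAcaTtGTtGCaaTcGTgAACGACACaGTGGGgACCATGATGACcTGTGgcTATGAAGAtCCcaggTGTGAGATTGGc
Hk1: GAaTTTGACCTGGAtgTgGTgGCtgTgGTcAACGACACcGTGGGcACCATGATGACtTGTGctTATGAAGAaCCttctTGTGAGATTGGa
In this stretch, mismatches recur every few bases. The longest run that the coding sequences share exactly was 26 bases, at positions 1960 to 1985 of Hkdc1 and 625 to 650 of Hk1. In Hk1 that run lies outside the stretch shown.

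The counting tool named in the submitters' processing notes assigns reads by short exact matches of fixed length. Of the 3487 stretches of 31 bases in the longest Hkdc1 transcript, 0 occurred in a transcript of any other gene. Hk1 shared 127 of 4248, all with the antisense gene Hk1os, which had a mean of 0.615 CPM. Hk3 shared 4 of 3189, all with Unc5a, a gene on the opposite strand whose end overlaps that of Hk3 and which had a mean of 265 CPM. Hk2 shared 14 of 5483 with unrelated genes. No stretch was shared among the 4 genes, and the estimated counts of all 4 were within 0.01 of a whole number in each of the 16 libraries.

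Hkdc1 (ENSMUSG00000020080, protein-coding, chromosome 10, 62383137 to 62422491, minus strand, build GRCm38.p6) was expressed at a low level in controls and lower in every Dnmt3a2 library. In Control_1d it stood at 1.75, 3.03, 1.99 and 1.70 CPM in replicates 1 to 4. In Dnmt3a2_1d it stood at 0.928, 0.902, 0.861 and 0.763 CPM. Every control library was above every Dnmt3a2 library, in a comparison where 3.43% of all genes had groups without overlap. Replicate 2 was the high value among the controls. The group means were 2.12 ± 0.624 and 0.863 ± 0.0726 CPM (SD, n = 4), a ratio of 0.409 (95% interval 0.300 to 0.556) and a log2 fold change of -1.29 (SE 0.21). Without Control_1d replicate 2 the log2 fold change was -1.07, and it no longer passed the adjusted threshold of 0.05 used to call genes. The same threshold was missed without Dnmt3a2_1d replicate 3, with the log2 fold change still at -1.29. It was missed too when the fit held only Control_1d and Dnmt3a2_1d (-1.29).

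At 5 days the separation was wider. Hkdc1 stood at 2.34, 2.06, 2.15 and 2.32 CPM in Control_5d. In Dnmt3a2_5d it stood at 0.594, 0.921, 0.701 and 0.841 CPM. The controls lay close together, and again no control library overlapped a Dnmt3a2 library, beside 6.29% of all genes without overlap at this day. The means were 2.22 ± 0.136 and 0.764 ± 0.145 CPM (SD, n = 4), a ratio of 0.346 (95% interval 0.254 to 0.472) and a log2 fold change of -1.53 (SE 0.21). It was between -1.63 and -1.43 when any 1 of the 16 libraries was left out.

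These levels rest on few reads. The rounded counts of Hkdc1 ran from 18 to 90 per library. Summed over a group they were 250 in Control_1d (exact Poisson 95% interval 220 to 283), 100 in Dnmt3a2_1d (81.4 to 122), 260 in Control_5d (229 to 294) and 92 in Dnmt3a2_5d (74.2 to 113), intervals that cover counting error only. In Control_1d the variance of the counts was 5.6 times their mean, while in the other groups the ratio was 0.187 to 0.841. Bulk tissue does not tell fewer expressing cells apart from less RNA per cell.

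**Figure D1:**
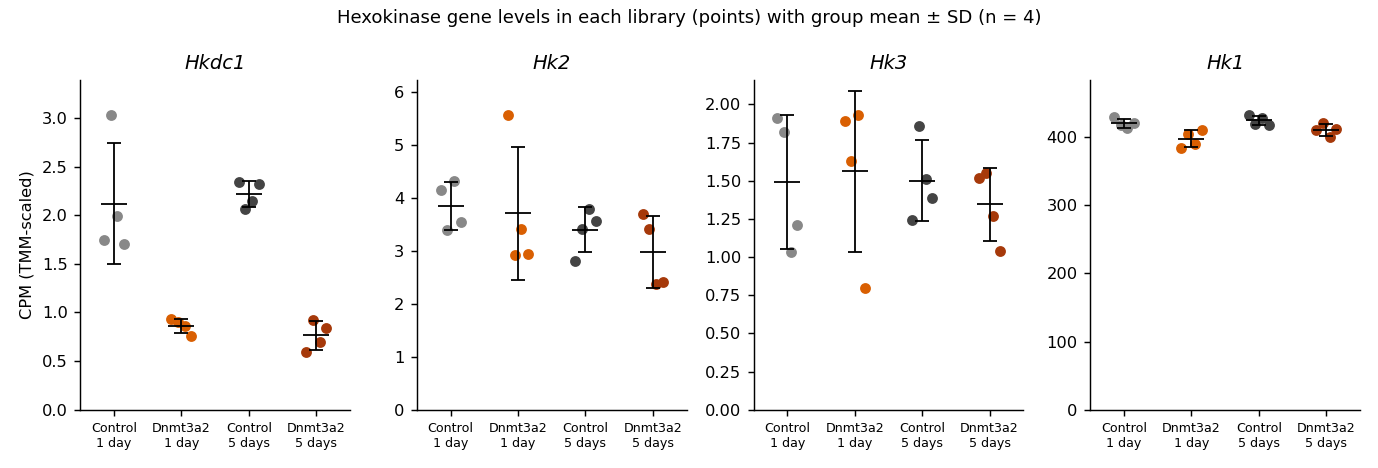
Level of each hexokinase gene in CPM (vertical axes, each from 0) in the 4 groups, with 1 point per library and a bar for the mean with its SD (n = 4). Hkdc1 is separated by virus at both days, and Hk2 and Hk3 overlap at both.

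Hkdc1 was not picked by its other comparisons, but these are not free of the choice. The day comparisons share libraries with the Dnmt3a2 comparisons. The difference of effects is taken between the 2 comparisons that chose it, and its p-value does not allow for this. Between the control groups, 5 days against 1 day gave a log2 fold change of 0.07 (SE 0.20, 95% interval -0.35 to 0.48; edgeR quasi-likelihood, Benjamini-Hochberg adjusted p = 0.999). Between the Dnmt3a2 groups it gave -0.18 (SE 0.23, 95% interval -0.65 to 0.30; edgeR adjusted p = 0.827). Libraries of the 2 days overlapped in both cases, while they did not for 2.4% of all genes in controls and 5.17% with Dnmt3a2. The difference between the Dnmt3a2 effects at the 2 days was -0.24 (SE 0.30, 95% interval -0.87 to 0.39; edgeR adjusted p = 1), so a difference between days was not detectable, and changes of up to those bounds lie within the interval.

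Of the 4 members, only Hkdc1 was called in a Dnmt3a2 comparison by edgeR at an adjusted p under 0.05, at either day. Over all genes, 0.0888% were called at 1 day and 0.32% at 5 days. Because Hkdc1 was picked from these same comparisons, nothing is read from its call. None of the 4 was called between days in controls, between days with Dnmt3a2, or for the difference of the Dnmt3a2 effects. In these 3 comparisons edgeR called 0 of all genes (0.0%), with 598, 1822 and 360 genes at an unadjusted p under 0.05, while DESeq2 called 0, 44 and 1 and limma-voom 0 in each.

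Hk1 (ENSMUSG00000037012, protein-coding, chromosome 10, 62268855 to 62379908, minus strand) carried most of the hexokinase mRNA. In Control_1d it stood at 429, 418, 413 and 420 CPM. In Dnmt3a2_1d it stood at 384, 405, 390 and 410 CPM. The highest Dnmt3a2 library was just under the lowest control, so the groups did not overlap, and an exact two-sided permutation test gave p = 0.0286, the smallest that 70 regroupings allow. Groups without overlap were found for 3.43% of all genes at 1 day. The change in level was -5.4%, with a log2 fold change of -0.08 (SE 0.04, 95% interval -0.16 to 0.00), and it did not pass the test over all genes (edgeR unadjusted p = 0.0513, adjusted p = 0.697).

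At 5 days Hk1 stood at 432, 419, 428 and 418 CPM in Control_5d. In Dnmt3a2_5d it stood at 410, 421, 400 and 411 CPM. Replicate 2 of Dnmt3a2_5d lay among the controls, so the groups overlapped. The log2 fold change was -0.05 (SE 0.04, 95% interval -0.13 to 0.03; edgeR adjusted p = 0.854), and the exact permutation p was 0.0857. Libraries without overlap were found for 6.29% of all genes at this day, and for none of Hk1, Hk2 and Hk3. Between days Hk1 differed by 0.02 in controls and 0.05 with Dnmt3a2 on the log2 scale (edgeR adjusted p = 0.999 and 0.692). Its 95% intervals were the narrowest of the 4 genes.

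Hk2 (ENSMUSG00000000628, protein-coding, chromosome 6, 82725025 to 82774454, minus strand) was low and variable. It stood at 4.15, 3.40, 4.33 and 3.54 CPM in Control_1d. In Dnmt3a2_1d it stood at 5.57, 2.92, 3.41 and 2.95 CPM. Replicate 1 of Dnmt3a2_1d, which was rich in choroid plexus transcripts, held the highest value of all 16, and the other 3 lay near or below the lowest control. The log2 fold change was -0.06 (SE 0.20, 95% interval -0.47 to 0.36; edgeR adjusted p = 0.983). Without that replicate it was -0.32. The library with still more choroid plexus transcripts, Dnmt3a2_5d replicate 1, had Hk2 at 3.70 CPM, within the range of its controls. The part of choroid plexus tissue in the Hk2 level was not tested.

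At 5 days Hk2 stood at 2.81, 3.42, 3.80 and 3.57 CPM in Control_5d. In Dnmt3a2_5d it stood at 3.70, 3.42, 2.37 and 2.42 CPM. Replicates 1 and 2 with Dnmt3a2 lay among the controls and replicates 3 and 4 below them. The log2 fold change was -0.19 (SE 0.20, 95% interval -0.61 to 0.23; edgeR adjusted p = 0.911). Between days it was -0.18 in controls and -0.32 with Dnmt3a2 (edgeR adjusted p = 0.999 and 0.595). Without Dnmt3a2_1d replicate 1 the latter was -0.05 (edgeR adjusted p = 0.947).

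Hk3 (ENSMUSG00000025877, protein-coding, chromosome 13, 55005985 to 55021385, minus strand) was low in all groups. In Control_1d it stood at 1.91, 1.82, 1.03 and 1.21 CPM. In Dnmt3a2_1d it stood at 1.89, 1.63, 1.93 and 0.797 CPM. The groups overlapped fully and replicate 4 of Dnmt3a2_1d was the lowest of all libraries. The log2 fold change was 0.06 (SE 0.26, 95% interval -0.49 to 0.61; edgeR adjusted p = 0.986).

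At 5 days Hk3 stood at 1.24, 1.86, 1.51 and 1.39 CPM in Control_5d. In Dnmt3a2_5d it stood at 1.52, 1.55, 1.27 and 1.04 CPM. The values overlapped, with a log2 fold change of -0.16 (SE 0.27, 95% interval -0.71 to 0.40; edgeR adjusted p = 0.955). Between days Hk3 gave 0.00 in controls and -0.22 with Dnmt3a2 (edgeR adjusted p = 0.999 and 0.813). Markers of neutrophils and monocytes, the blood cells known for Hk3, summed to 0.168 to 6.42 CPM over the 16 libraries, and the summed microglia markers to 184 to 313 CPM. The lowest microglia sum and the lowest Hk3 level fell in the same library, Dnmt3a2_1d replicate 4, while the highest microglia sum (313 CPM, Dnmt3a2_5d replicate 1) went with 1.52 CPM of Hk3 and the highest Hk3 level (1.93 CPM, Dnmt3a2_1d replicate 3) with a microglia sum of 251 CPM. The next highest Hk3 levels, 1.91 and 1.89 CPM in replicate 1 of Control_1d and Dnmt3a2_1d, went with microglia sums of 295 and 311 CPM. Those libraries also had the highest neutrophil and monocyte sums, 6.42 and 3.92 CPM, while Dnmt3a2_1d replicate 3 had 0.413 CPM. The part of these cells in the Hk3 level was not tested.

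**Figure D2:**
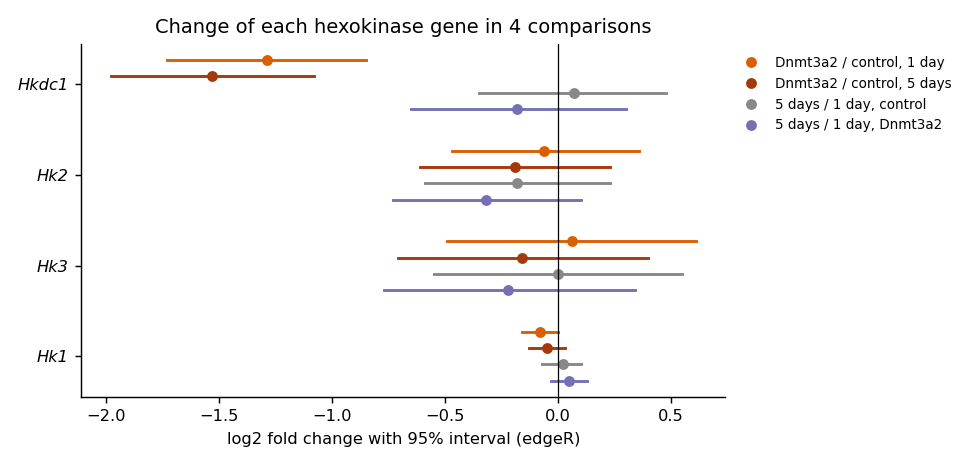
Log2 fold change of the 4 hexokinase genes in 4 comparisons (horizontal axis; points are edgeR estimates and lines their 95% intervals). Hkdc1 lies at -1.29 and -1.53 in the Dnmt3a2 comparisons and near 0 between days, and Hk1 has the shortest lines.

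Levels of different genes were compared per kilobase of the longest coding transcript. Over the 16 libraries Hk1 had 96.5 ± 3.13 CPM per kb, Hk2 0.632 ± 0.141, Hk3 0.458 ± 0.110 and Hkdc1 0.424 ± 0.216 (SD, n = 16). Hk1 thus made up 98.5% of the summed level per length of the 4 genes, and was the highest in each library. Hk2 and Hk3, and Hk3 and Hkdc1, were neighbours in this order whose ranges over the 16 libraries overlapped. With the mean length over a gene's transcripts in place of the longest, the order was the same and the share of Hk1 was 99.3%.

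The place of Hkdc1 among the minor hexokinases differed by group, as a description of the choice that was made. In Control_5d it had 0.630 ± 0.0388 CPM per kb, close to Hk2 at 0.617 ± 0.0772 and above Hk3 at 0.466 ± 0.0825 in all 4 libraries. In Dnmt3a2_5d it had 0.217 ± 0.0413 CPM per kb, under Hk2 at 0.540 ± 0.124 and Hk3 at 0.417 ± 0.0736 in all 4 libraries. Hkdc1 was the lowest of the 4 genes in each of the 8 Dnmt3a2 libraries and in 1 of 8 control libraries, Control_1d replicate 1. Its share of the summed level per length was 0.603% in Control_1d and 0.261% in Dnmt3a2_1d, and 0.625% in Control_5d and 0.223% in Dnmt3a2_5d.

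The setting of Hkdc1 on chromosome 10 was then described. Hkdc1 and Hk1 are both read from the minus strand, with Hkdc1 upstream and 3229 bases between them. On the other side lies Supv3l1, a mitochondrial RNA helicase gene also on the minus strand. The end of its transcribed region, not its start, is 6718 bases from Hkdc1. Of 17 other coding genes within 500 kb, 15 were tested and 0 were called by edgeR with Dnmt3a2, with 1 at an unadjusted p under 0.05 at 1 day (Ccar1, log2 fold change 0.21, edgeR unadjusted p = 0.0166) and 0 at 5 days. Over all genes 7.17% had such a p at 1 day and 8.01% at 5 days, and 0.0888% and 0.32% were called, so these counts are near the background.

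Log2 fold changes of these 15 neighbours ran from -0.33 to 0.21 at 1 day and from -0.26 to 0.10 at 5 days, with medians of 0.01 and -0.02. Supv3l1 gave 0.04 at 1 day and -0.05 at 5 days (SE 0.06 each; edgeR adjusted p = 0.939 and 0.935). Tet1, which encodes an enzyme that oxidises methylated cytosine in DNA, lies 382079 bases away and gave -0.07 and -0.13 (SE 0.13 each; edgeR adjusted p = 0.953 and 0.907); it was singled out after its values were seen. DESeq2 and limma-voom also called 0 of the 15 at either day.

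**Figure D3:**
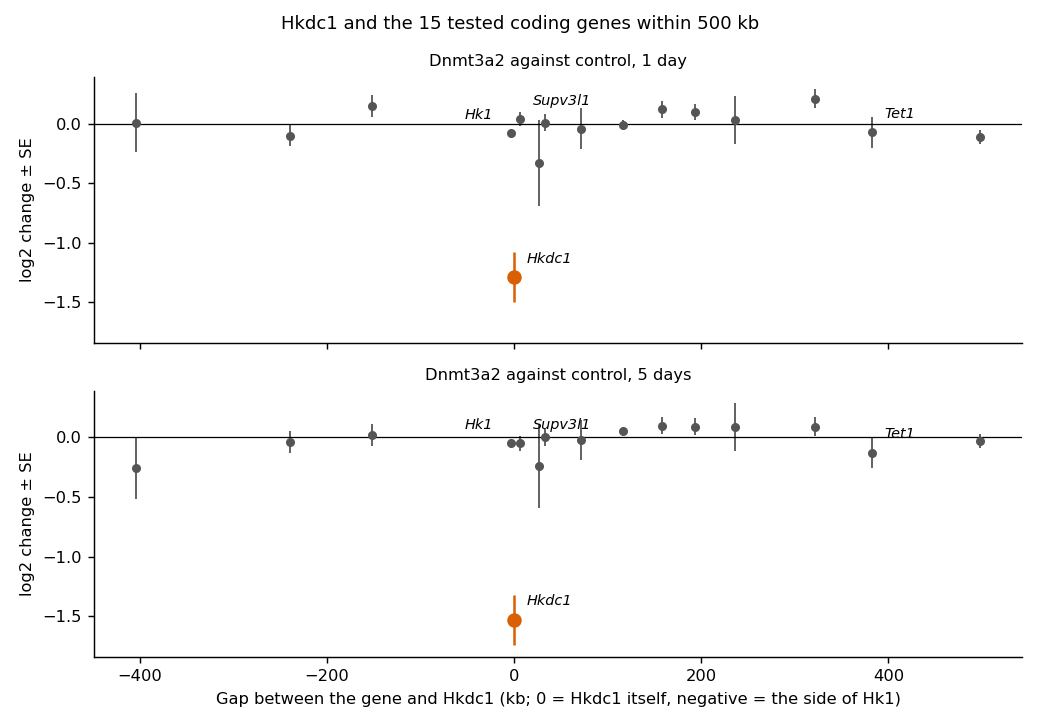
Log2 fold change with its SE for Hkdc1 (large point) and the 15 tested coding genes within 500 kb, by distance from Hkdc1 in kb, at 1 day (upper) and 5 days (lower). Hkdc1 lies at -1.29 and -1.53 and its neighbours between -0.33 and 0.21.

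Since the delivered enzyme methylates cytosine in CG pairs, the CG pairs just upstream of the neighbouring starts are shown; methylation itself was not measured in these libraries. Windows of 250 bases before RefSeq transcription starts (GRCm38.p6) were searched for CG, which reads the same on both strands. Over 32851 such windows the median was 6. The Hkdc1 window held 6, and 53.7% of windows held at most that many. The window of the distal Hk1 start held 1 (18.8% held at most that many), and that of an internal Hk1 start held 14 (72.7%). The Hk2 window held 25 (90.4%) and the Hk3 window 6 (53.7%). The sequences of Hkdc1 (chr10:62422492-62422707, minus strand, without the 34 bases that the annotation places in an exon) and of the distal Hk1 start (chr10:62379909-62380158, minus strand) follow, with CG in capitals.
Hkdc1: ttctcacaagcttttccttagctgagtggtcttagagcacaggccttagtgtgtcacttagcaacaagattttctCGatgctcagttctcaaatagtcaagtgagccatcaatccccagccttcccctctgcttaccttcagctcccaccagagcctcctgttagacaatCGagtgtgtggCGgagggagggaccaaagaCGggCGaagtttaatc
Hk1: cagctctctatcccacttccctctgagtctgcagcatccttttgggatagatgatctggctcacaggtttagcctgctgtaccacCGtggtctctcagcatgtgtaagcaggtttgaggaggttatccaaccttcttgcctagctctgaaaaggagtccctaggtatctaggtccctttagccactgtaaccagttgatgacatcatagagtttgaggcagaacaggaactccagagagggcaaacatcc
Of the 5 CG in the printed Hkdc1 stretch, 4 lie in the part nearest the transcription start. The printed stretch of the distal Hk1 start has a lone CG, against 14 in the window of the internal start. Which Hk1 start was used in these libraries was not examined. These counts describe the letters and say nothing of binding or methylation.

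The steps before and after hexokinase were counted in 7 lists, of which 82 genes are reported here and 75 of these were tested. They cover glucose transporters, other sugar kinases and hexokinase regulators, users of glucose 6-phosphate, glycolysis, the pentose phosphate pathway, glycogen metabolism and the hexosamine pathway. At 1 day edgeR called 0 of the 75 with 8 at an unadjusted p under 0.05, 26 had a log2 fold change above 0 and 49 below, and their median was -0.029, beside 0.003 over all genes. Of all genes, 7.17% had such a p and 49.1% lay below 0. At 5 days edgeR called 0 of the 75 with 7 at an unadjusted p under 0.05, 38 lay above and 37 below 0, and their median was 0.00 beside 0.008. Of all genes at this day, 8.01% had such a p and 47.2% lay below 0. DESeq2 and limma-voom also called 0 of these genes at each day.

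Entry of glucose gave no call in 12 tested transporter genes at either day. Slc2a1, the transporter of the blood-brain barrier and glia, gave 0.17 and 0.04 on the log2 scale, and Slc2a3, the neuronal transporter, 0.01 and 0.04 (edgeR adjusted p = 0.858 to 0.992). The smallest p among transporters was that of Slc2a4, the insulin-responsive transporter, at 1 day (-0.50, edgeR adjusted p = 0.80) and of Slc2a5, a fructose transporter, at 5 days (-0.28, edgeR adjusted p = 0.776).

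Among other sugar kinases and regulators, 10 tested genes are reported. Galk2 had the smallest p among them at both days. At 1 day it had 11.6 CPM in controls and 9.76 CPM with Dnmt3a2 (log2 fold change -0.25, edgeR adjusted p = 0.419), and at 5 days it also gave -0.25 (edgeR adjusted p = 0.311). At 1 day 9 of the 10 lay below 0 and at 5 days 6 of 10, against 49.1% and 47.2% of all genes.

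In glycolysis after hexokinase, 0 of 22 tested genes reported here were called at either day. Pfkfb4, which sets the level of the phosphofructokinase activator fructose 2,6-bisphosphate, had the smallest p at 1 day (7.70 CPM in controls and 5.77 CPM with Dnmt3a2; log2 fold change -0.42, edgeR adjusted p = 0.342). At 5 days it was Pfkl, a phosphofructokinase subunit, with 211 CPM in controls and 237 CPM with Dnmt3a2 (0.17, edgeR adjusted p = 0.213).

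None of the tested genes in the remaining lists was called either. The smallest p in each belonged to Gpi1 (-0.05 at 1 day) and Slc37a4 (-0.15 at 5 days) among users of glucose 6-phosphate, and to Pgd in the pentose phosphate pathway (-0.16 at 1 day and 0.09 at 5 days). They belonged to Pygb, the brain glycogen phosphorylase, in glycogen metabolism (0.13 and 0.15) and to Uap1 in the hexosamine pathway (-0.10 and -0.14). Their edgeR adjusted p ran from 0.434 to 0.858.

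**Figure D4:**
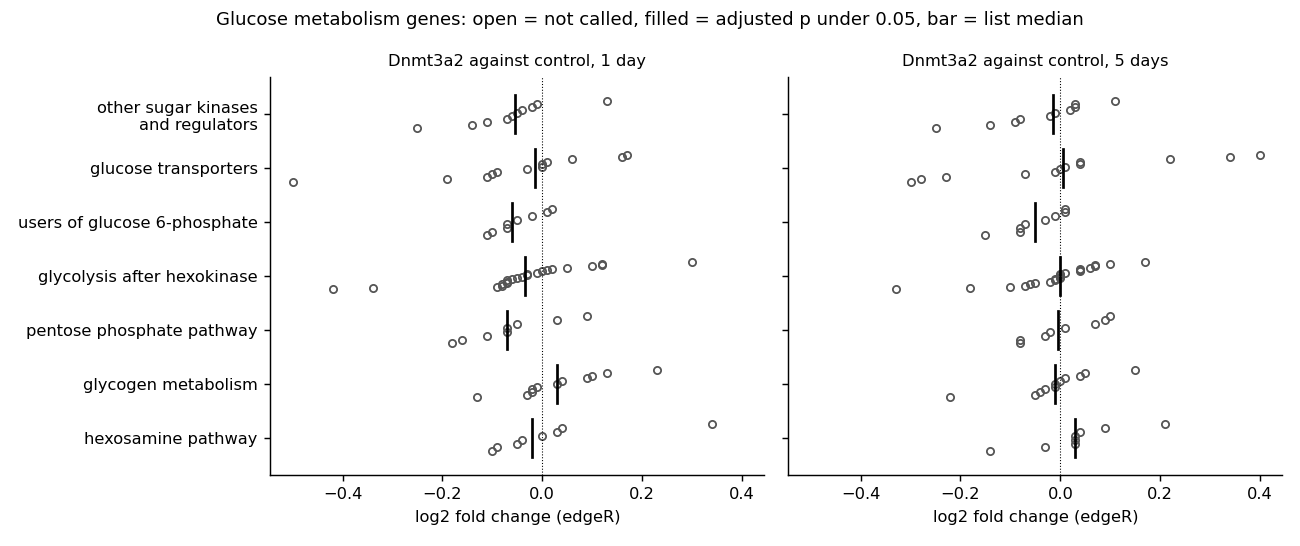
Log2 fold change with Dnmt3a2 of the 75 tested genes reported from 7 glucose metabolism lists (rows) at 1 day (left) and 5 days (right); points are edgeR estimates, open where not called, and bars are list medians. No point is filled, and values run from -0.50 to 0.40.

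Genes whose pattern was most like that of each member were sought among 13172 genes whose mean reached 1 CPM, by Pearson's r over the 16 libraries on the deposited log2 CPM. For Hkdc1 they were Extl1 (r = 0.92, Spearman's rho = 0.81), Minar2 (r = 0.91, rho = 0.79) and Acta1 (r = 0.91, rho = 0.82). The libraries share their groups, so a gene that differs by group as Hkdc1 does ranks high. With group means subtracted the closest included Slc12a5 (r = 0.91, rho = 0.84), Zfpm2 (0.87, 0.84), Lmbrd1 (0.80, 0.62) and Sestd1 (0.76, 0.63). None of them was among the first 3. How far these r rest on Control_1d replicate 2, the high value of Hkdc1, was not tested.

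For Hk1 the closest genes were Sh2d3c (r = 0.92), Trp53inp1 (0.83) and Spats1 (0.81). For Hk2 they were Spata13 (0.88), Stat3 (0.84) and Lag3 (0.84), and for Hk3 Klf3 (0.87), Heyl (0.86) and Cd180 (0.86). These are descriptions over 16 libraries that share groups and were picked as the highest of many.

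Within the family, Hk1 and Hkdc1 had r = 0.63 over the 16 libraries and -0.03 once group means were subtracted. Hk2 and Hk3 had 0.44 and 0.43, the pair whose value moved least.

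Summed levels of hippocampal and neocortical markers are given beside Hkdc1. The 3 dentate granule cell markers summed to 383 to 454 CPM in Control_5d and 311 to 335 CPM in Dnmt3a2_5d, without overlap. Single genes without overlap made up 6.29%, which is not a like measure for a sum. By edgeR 1 of the 3, C1ql2, was called, beside 0.32% of all genes. At 1 day the 3 markers summed to 364 to 439 CPM in controls and 318 to 400 CPM with Dnmt3a2. Prox1, also of the 3, had means of 154 CPM in Control_1d and 159 CPM in Dnmt3a2_1d. Its means were 164 CPM in Control_5d and 141 CPM in Dnmt3a2_5d. At 1 day 2 of the 3 had a log2 fold change below 0 and at 5 days 3 of 3, beside 49.1% and 47.2% of all genes. The 3 CA1 markers overlapped at both days, with 642 to 748 CPM in controls and 605 to 686 CPM with Dnmt3a2 at 1 day, and 619 to 757 CPM and 595 to 658 CPM at 5 days. The 6 neocortex markers overlapped at 1 day (159 to 179 CPM and 173 to 187 CPM) and did not at 5 days (163 to 177 CPM and 181 to 193 CPM). The 4 CA3 and CA2 markers overlapped at both days. They summed to 204 to 223 CPM in controls and 198 to 269 CPM with Dnmt3a2 at 1 day, and 195 to 244 CPM and 217 to 264 CPM at 5 days. Their median log2 fold change was 0.09 at 1 day and 0.18 at 5 days. That of the CA1 markers was -0.20 and -0.19, and that of the dentate granule cell markers -0.14 and -0.34. For the neocortex markers it was 0.11 and 0.12. None of these markers was at 0, and their part in the level of Hkdc1 was not tested. Without the 2 libraries rich in choroid plexus transcripts, Hkdc1 gave a log2 fold change of -1.33 at 1 day and -1.43 at 5 days, an alternative chosen after seeing the data.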

How the data were processed

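Total RNA from mouse dorsal hippocampus, 500 ng per library per the labels, was sequenced on the BGISEQ-500 platform. Reads were processed with Trim Galore (0.6.4), kallisto (0.4.6) and edgeR (3.17) on build GRCm38.p6, per the submitters' processing notes, which state neither annotation release nor read strand. The authors deposited kallisto-style estimated counts, not normalised, for 55385 identifiers, 26.2% of values not whole, and log2 CPM for 16907 genes, which differed by at most 5.33e-15 from edgeR's log2 CPM of the counts.

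Counts were rounded, filtered (filterByExpr by group) and TMM-scaled. They were fitted over all 16 libraries by edgeR 4.0.16 (R 4.3.3) in its robust quasi-likelihood form, with 1 coefficient for each group. Benjamini-Hochberg adjustment was made over the 16899 genes within each of the 5 comparisons separately, and not across comparisons. Symbols came from GENCODE M21, whose genome build matches, and named 55144 identifiers. Exact permutation tests used CPM. The fit was tested on simulated data. The alternatives were DESeq2 1.42.0, limma 3.58.1 (voom and trend), other scaling and filters, a replicate block, fewer groups and each library left out.

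The members and lists were chosen with earlier results of these data known. Named genes were Dnmt3a, the members, list members called or with the smallest p at each day with Dnmt3a2, the nearest and any called neighbours, and the genes most alike (3 per member, and 5 for Hkdc1 with group means subtracted). Ccar1, Tet1, Slc2a1, Slc2a3 and Prox1 were named after their values were seen. Totals of 28.6 to 30.0 M counts put the precision of a level near 1 CPM at about 29 counts per library. Protein sequences were not used here. Some genes that these rules would name or list are not reported here.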

Additional observations from a re-analysis of the deposited data

How the results depend on the processing

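Of 536 recomputed log2 fold changes of the 4 hexokinase genes, 3 lost a call and 17 changed sign near 0. The other 516 kept their direction and neither gained nor lost a call. For Hk2, Hk3 and Hkdc1 between days with Dnmt3a2, DESeq2 gave no adjusted p, and these values are among the 516. The call of Hkdc1 at 1 day ended with only the groups compared (-1.29) and in 2 of the 16 fits that left out a library. These were without Control_1d replicate 2 (-1.07) and without Dnmt3a2_1d replicate 3 (-1.29). Over all 16 such fits values ran from -1.38 to -1.07. Values without a call that changed sign were Hk2 at 1 day (-0.32 to 0.04 over left-out libraries), Hk3 at 1 day (-0.08 to 0.28, and -0.04 without the choroid-rich pair, Dnmt3a2_1d and Dnmt3a2_5d replicate 1), Hk3 between days in controls (-0.14 to 0.14), Hkdc1 between days in controls (-0.03 to 0.29, and -0.02 without replicate 1 of Control_1d, Dnmt3a2_1d and Dnmt3a2_5d, which earlier results had set apart by interferon response transcripts) and the Hk2 difference of effects (-0.26 to 0.13, and 0.01 without the choroid-rich pair). The causes were not tested.

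Genes called at 1 day numbered 15, and 59 by DESeq2, 34 without a low-count filter, 7 with only the groups compared and 6 to 22 over left-out libraries. At 5 days they numbered 54, and 143 by DESeq2, 94 with only the groups compared, 90 without the choroid-rich pair, 105 without those 3 libraries, and 22 to 82 over left-out libraries. Between days with Dnmt3a2, 0 became 44 by DESeq2, 6 without the filter and 0 to 1 over left-out libraries, and the difference of effects 1 by DESeq2.

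Same-numbered libraries were not paired by the labels, and their deviations correlated at -0.086 to 0.381 over 24 pairs, with 6 of 16 libraries closest to their own number. With the replicate block Hkdc1 gave -1.27 and -1.55, 17 and 65 genes were called, and no member's call changed. On the log2(CPM + 1) scale, which compresses low genes, Hkdc1 gave -0.72 and -0.87. With mean instead of longest transcript lengths the shares of the summed level were 99.3% for Hk1, 0.356% for Hk2, 0.177% for Hk3 and 0.126% for Hkdc1, in place of 98.5%, 0.646%, 0.468% and 0.428%. Levels of Hkdc1, Hk2 and Hk3 rest on few counts per library, so moderate changes of Hk2 and Hk3 lie within their intervals.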

Other observations

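Within the Dnmt3a2 groups, Dnmt3a and Hkdc1 are given side by side as values. In Dnmt3a2_1d, replicate 1 had the lowest Dnmt3a level (623 CPM) and the highest Hkdc1 level (0.928 CPM), while replicate 3 had the highest Dnmt3a level (1153 CPM) with Hkdc1 at 0.861 CPM. In Dnmt3a2_5d, replicate 2 had the highest level of both (1249 CPM of Dnmt3a and 0.921 CPM of Hkdc1), and replicate 1 the lowest of both (1015 and 0.594 CPM). No order was common to the groups, and with 4 libraries in each no relation was tested. The rounded counts of Hkdc1 were 22 to 27 in Dnmt3a2_1d and 18 to 28 in Dnmt3a2_5d. Counting error alone can give such differences, so nothing is read from these orders.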
